A study of Rattus norvegicus with 10 samples.

Results

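The 10 genes described here are markers of Kupffer cells, the macrophages that reside in the liver sinusoids, and of macrophages in general: Clec4f, Cd5l, Cd163, C1qa, C1qb, C1qc, Csf1r, Cd14, Cd68 and Aif1. They were taken as a fixed list of gene names. All 12 probe sets that the array's gene table assigns to 1 of these genes alone were used, out of 31042 probe sets for 14217 genes. Cd5l and Aif1 had 2 probe sets each. Where a gene had 2, the brighter on average stands for it. Of the 12 probe sets, 10 varied between livers with an SD over 0.01 log2 units, and they represent 9 genes, all but C1qb. Across the array 4050 probe sets (13.0%) varied by this measure.

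The livers came from male rats aged 13 weeks, 5 per diet. The seasoned group ate an instant noodle diet for 30 days, with noodle at 30% of its weight and 26% of its energy as fat. The control group ate the same diet with the seasonings left out. Noodle and fat were thus common to both groups, feeding was paired at about 60 g per kg of body weight and day, and the light cycle was 12 h on and 12 h off. The labels name neither the strain nor the seasonings, and the hour of sampling is not stated in the labels. Each liver was measured on 1 array, as a log2 signal per probe set. The seasoned animals are numbered 1, 4, 7, 10 and 13 and the controls 2, 5, 8, 11 and 14. Each signal comes from a whole piece of tissue, so fewer macrophages and less RNA per macrophage cannot be told apart.

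Kupffer cells line the sinusoids, where they clear microbes, immune complexes, worn-out red cells and free haemoglobin from the blood that arrives from the gut. They depend on signals through the CSF1 receptor, take up particles with lectins and scavenger receptors, and are a main source of complement C1q in the body. C1q is built from 3 kinds of chain, each from a gene of its own, and starts the classical complement pathway when it binds antibody or dying cells.

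The labels call the samples liver, although their extraction text names brain, and C1q, Csf1r and Aif1 are also made by microglia, the macrophages of the brain. The 9 measured hepatocyte markers had signals of 9.95 to 14.34. The 11 measured brain markers had a median of 6.13, where the array medians were 6.47 to 6.48, and the highest of them was Mbp at 7.26. Of these, the microglial genes P2ry12 and Tmem119 were at 6.16 and 6.13. The level of Clec4f, a lectin of Kupffer cells, lay between 9.68 and 10.63 in all 10 livers. Signals of different probe sets are not on a common scale, so these levels are given as a description. Arrays correlated with one another at 0.990 to 0.998 over all probe sets, and 0 pairs held identical values.

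The promoters of Clec4f, Cd5l and C1qa are shown because these genes varied together across the livers with diet means removed. Their pairs had a Pearson r of 0.801 (Clec4f and Cd5l), 0.890 (Clec4f and C1qa) and 0.893 (Cd5l and C1qa). With the means of the animal-number sets described below removed too, these were -0.024, -0.282 and 0.5055. The promoter of C1qb is shown because its deposited signal did not vary although it lies near C1qa, with C1qc between them. In the RefSeq annotation of rat assembly GRCr8, C1qb, C1qc and C1qa follow one another with no other gene between them. Windows run from 250 bases before to 50 bases after the annotated start, 5′ to 3′ along the gene's strand, in GRCr8 from RefSeq. Clec4f is at chr4:117696358-117696657 (minus strand), Cd5l at chr2:175088665-175088964 (plus strand), C1qa at chr5:154419884-154420183 (minus strand) and C1qb at chr5:154407778-154408077 (minus strand). Capitals mark any match, on either strand, to GAGGAA (a core of the sites bound by the macrophage factor PU.1), GGAAGT (a core of ETS factor sites, the family of PU.1) or TGCTGA (part of the site of MAF factors). The first 2 motifs can overlap one another.
Clec4f: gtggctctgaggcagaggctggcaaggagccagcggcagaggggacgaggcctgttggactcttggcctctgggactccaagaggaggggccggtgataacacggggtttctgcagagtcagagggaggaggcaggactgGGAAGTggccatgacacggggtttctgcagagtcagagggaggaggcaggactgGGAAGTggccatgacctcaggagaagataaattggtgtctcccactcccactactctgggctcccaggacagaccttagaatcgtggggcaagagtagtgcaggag
Cd5l: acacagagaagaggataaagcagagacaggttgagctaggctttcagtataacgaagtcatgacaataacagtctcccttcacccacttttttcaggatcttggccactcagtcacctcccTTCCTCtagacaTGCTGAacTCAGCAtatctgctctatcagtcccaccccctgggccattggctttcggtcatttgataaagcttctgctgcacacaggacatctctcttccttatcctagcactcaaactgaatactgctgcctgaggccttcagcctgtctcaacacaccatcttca
C1qa: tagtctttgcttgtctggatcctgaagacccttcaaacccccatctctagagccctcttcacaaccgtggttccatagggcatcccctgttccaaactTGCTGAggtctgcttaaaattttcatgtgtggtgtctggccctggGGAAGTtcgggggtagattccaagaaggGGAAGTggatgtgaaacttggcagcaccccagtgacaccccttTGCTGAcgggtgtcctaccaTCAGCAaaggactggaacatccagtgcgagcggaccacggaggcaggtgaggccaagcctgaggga
C1qb: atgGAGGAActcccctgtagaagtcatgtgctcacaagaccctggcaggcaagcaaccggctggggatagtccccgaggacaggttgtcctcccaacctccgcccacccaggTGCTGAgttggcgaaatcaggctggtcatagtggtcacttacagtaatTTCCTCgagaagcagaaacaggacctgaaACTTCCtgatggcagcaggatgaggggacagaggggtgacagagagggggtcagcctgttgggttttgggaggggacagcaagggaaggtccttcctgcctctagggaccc

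Of the 10 genes, 8 had a promoter in the table, all but C1qc and Aif1. GAGGAA was present in 5 of the 8 and in 27.5% of all 27457 rat promoters, GGAAGT in 4 of the 8 and in 22.8% of all, and TGCTGA in 4 of the 8 and in 18.6% of all. The C1qa window held GGAAGT at 107 and at 79 bases before the start, and TGCTGA at 3 places. The Cd5l window held TGCTGA on both strands, starting 117 and 109 bases before the start. The Clec4f window repeated a stretch of 56 bases at a distance of 54, so that its 2 GGAAGT matches lie in copies of the same stretch. A repeat of at least 40 bases was found in 0.688% of all promoters. These matches describe the letters of the windows and do not show that a factor binds there.

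No marker was called between the diets, and the group means of most lay close together. limma called 0 of the 12 probe sets and 0 of all 31042 (0%), with adjusted p-values of 0.9997 for each of the 12 and a smallest unadjusted p of 0.101 among them. Over the whole array 1390 probe sets had an unadjusted p under 0.05. Of the 9 varying genes, 8 had a positive difference, seasoned minus control (4 when the animals were also blocked by number, as described further on), with a median of 0.064 against 0.017 over all 2613 varying genes. Of those 2613 genes, 1497 had a positive difference. The 9 markers co-varied, so their signs are not independent of one another. The diets overlapped in all 12 probe sets, while they did not overlap in 2.99% of the varying probe sets of the array.

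**Figure D1:**
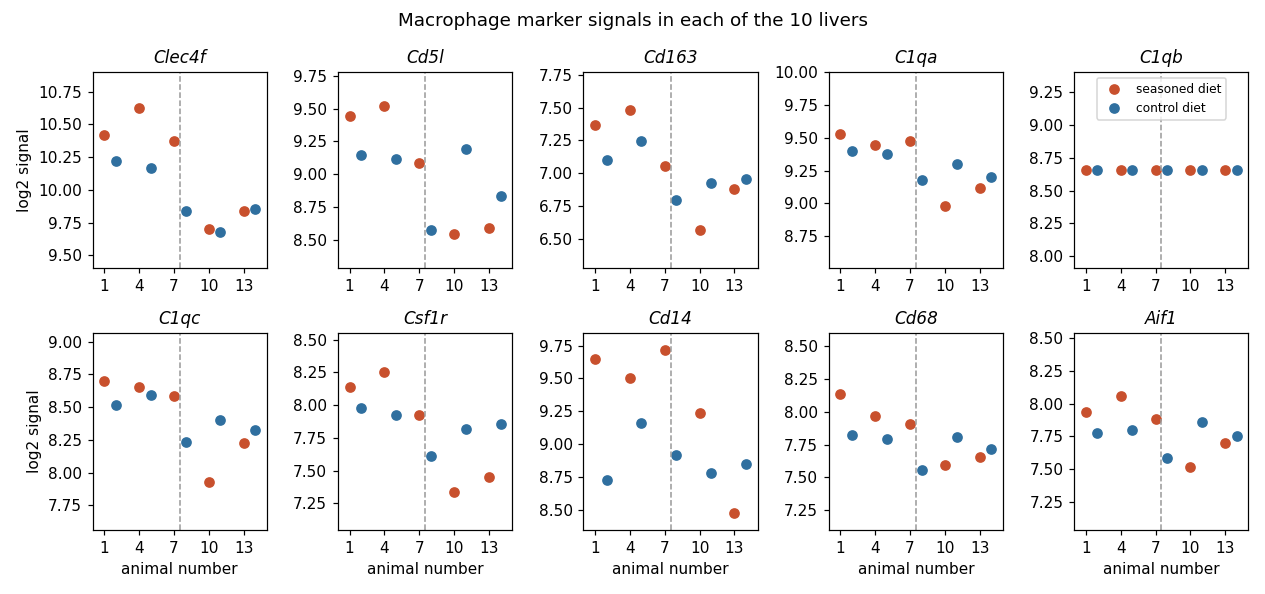
Log2 signal of each marker (1 probe set per gene) against the animal number of the title, with 1 point per liver, 5 seasoned and 5 control. Every panel spans 1.5 log2 units, and the dashed line parts animals 1 to 7 from animals 8 to 14. In Clec4f, C1qa, C1qc, Cd163 and Csf1r all livers left of the line lie above all livers right of it, while C1qb is flat at 8.66.

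Among the receptors for particles and lipids, Clec4f is a lectin that in rodents is found mainly on Kupffer cells. In seasoned animals 1, 4, 7, 10 and 13 its signal was 10.42, 10.63, 10.38, 9.70 and 9.84. In control animals 2, 5, 8, 11 and 14 it was 10.22, 10.17, 9.84, 9.68 and 9.86. The first 3 seasoned livers were above every control and the last 2 lay among the lower controls. The difference was 0.24 ± 0.20 (SE, 5 livers per diet).

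Cd5l encodes a secreted protein of tissue macrophages that keeps them alive and is carried in plasma on IgM. Its signal was 9.44, 9.52, 9.09, 8.54 and 8.59 in the seasoned livers, in the same order of animals, and 9.15, 9.11, 8.57, 9.19 and 8.83 in the controls. Seasoned animals 1 and 4 were above every control, animal 10 was below every control, animal 13 was above the lowest control alone, and the groups overlapped. The difference was 0.06 ± 0.23. The other probe set of Cd5l, whose mean of 6.05 was below the array medians, had a difference of -0.03 ± 0.15. Its values followed those of the first with a Pearson r of 0.753 over the 10 livers, each centred on its diet's mean.

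Cd163 is the scavenger receptor for haemoglobin bound to haptoglobin. The seasoned livers were at 7.37, 7.48, 7.06, 6.56 and 6.88 and the controls at 7.10, 7.25, 6.80, 6.93 and 6.95, with a difference of 0.06 ± 0.18. The lowest and the highest liver were both seasoned.

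C1qa and C1qc encode 2 of the chains of C1q. C1qa was at 9.53, 9.44, 9.48, 8.98 and 9.12 in seasoned livers and at 9.40, 9.37, 9.18, 9.30 and 9.20 in controls. C1qc was at 8.70, 8.65, 8.58, 7.93 and 8.22 in seasoned livers and at 8.52, 8.59, 8.23, 8.40 and 8.33 in controls. In both genes seasoned animals 10 and 13 were below every control. Animals 1, 4 and 7 were above every control for C1qa, and animals 1 and 4 for C1qc. The differences were 0.02 ± 0.11 for C1qa and 0.0019 ± 0.16 for C1qc.

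C1qb, the gene of the remaining chain, was at 8.66 in every liver with an SD of 0.00024. Its deposited signal therefore could not show a change of the size seen in its partners. These minute deviations had a Pearson r of 0.692 with the mean profile of the 9 varying markers, diet means removed, and 0.301 when the means of the animal-number sets described below were removed too. Aif1 had a second probe set of the same kind, at 6.63 in every liver, with an r of -0.523. Among all 26992 near-constant probe sets the median r was -0.158.

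Csf1r, the receptor for the growth factors CSF1 and IL-34 on which macrophages depend, was at 8.14, 8.26, 7.93, 7.34 and 7.45 in seasoned livers and at 7.98, 7.93, 7.61, 7.82 and 7.85 in controls. Seasoned animals 10 and 13 were below every control. The difference was -0.01 ± 0.19, the single negative value among the 9 genes.

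Cd14, the co-receptor that passes lipopolysaccharide to TLR4, had the largest difference of the 9, 0.43 ± 0.23 (unadjusted p = 0.101 by limma). Seasoned livers were at 9.65, 9.50, 9.72, 9.24 and 8.47 and controls at 8.73, 9.16, 8.92, 8.78 and 8.85. The first 4 seasoned livers were above all controls, and animal 13 was below all of them. With each liver left out in turn, the difference ranged from 0.33 without animal 7 (unadjusted p = 0.2095 by limma) to 0.64 without animal 13 (unadjusted p = 0.00104, adjusted p = 0.620).

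Cd68, a glycoprotein of macrophage lysosomes, was at 8.14, 7.97, 7.91, 7.59 and 7.66 in seasoned livers and at 7.83, 7.79, 7.56, 7.81 and 7.72 in controls. Its difference was 0.11 ± 0.11. Aif1, which encodes the calcium-binding protein IBA1, was at 7.93, 8.06, 7.88, 7.52 and 7.70 in seasoned livers and at 7.77, 7.80, 7.58, 7.86 and 7.75 in controls, a difference of 0.06 ± 0.10. In both genes animals 1, 4 and 7 were above every control and the other 2 seasoned livers lay in or just below the control range.

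The markers spread more widely over the seasoned livers than over the controls. The SD of the seasoned livers was 1.71 to 2.98 times that of the controls in all 9 varying genes, with a median ratio of 2.15. Over the varying probe sets of the array the median ratio was 0.951, and 46.7% of them had a ratio over 1. For Csf1r the SD was 0.41 in seasoned livers and 0.14 in controls, and for Cd14 it was 0.50 and 0.17. The other varying probe set of Cd5l had a ratio of 1.10. These ratios span both animal-number sets described below. Within animals 8 to 14 the seasoned SD was below that of the controls for Clec4f, Cd5l, Csf1r, Cd68 and Aif1. It was above it for C1qa, C1qc, Cd163 and Cd14. Within animals 1 to 7 it was above it for all but Cd14. The 9 genes co-varied, so their ratios are not independent of one another, and the difference in spread was not tested.

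Marker signals also parted with the numbering of the animals. Animals 1 to 7 comprise 3 seasoned and 2 control livers, and the rest, animals 8 to 14, comprise 2 and 3. This parting was found in earlier work on these data, as the place along the numbers that gave the most genes, and no label names it. P-values for it are therefore too small and serve as a description. Within each diet the letter and number codes of the labels, read as array positions, rise with animal number, so number and position cannot be told apart. All seasoned livers have the letter A and all controls the letter B, so this letter and the diet cannot be told apart either.

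All 9 varying genes had lower means in animals 8 to 14, with a median difference of -0.43 after the diet was taken into account. Over all 2613 varying genes of the array the median was -0.1385, and 2006 of them were lower. Of the varying probe sets 71.8% were lower. The difference was -0.55 ± 0.08 for Clec4f (adjusted p = 0.0285 by limma) and -0.30 ± 0.06 for C1qa (adjusted p = 0.0489). These were the 2 of the 12 probe sets called, and 2.39% of all probe sets were called as lower in animals 8 to 14. With any 1 liver left out the count lay between 0 and 3. In a fit of the varying probe sets alone, 7 of the 10 were called (Clec4f, Cd5l, Cd163, C1qa, C1qc, Csf1r and Cd68), against 21.7% of varying probe sets called as lower.

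The sets did not overlap in 5 of the genes (Clec4f, C1qa, C1qc, Cd163 and Csf1r). Over the array they did not overlap, in either direction, in 525 of the 2613 varying genes. Of the varying probe sets 16.1% were without overlap and lower in animals 8 to 14. Clec4f lay between 10.17 and 10.63 in animals 1 to 7 and between 9.68 and 9.86 in animals 8 to 14. C1qc lay between 8.52 and 8.70 in the first set and between 7.93 and 8.40 in the second. Cd5l, Cd14, Cd68 and Aif1 overlapped between the sets. For Cd5l the liver of the second set that overlapped the first was control animal 11, which at 9.19 was above animal 7 and controls 2 and 5.

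Set against the animal number itself, with the diet means removed, Clec4f had a Pearson r of -0.800 (exact permutation within the diets, p = 0.0128, adjusted p = 0.0676 over the 10 varying probe sets) and a Spearman correlation of -0.812 (exact permutation p = 0.0122). The Pearson r was -0.864 once the 2 animals at the ends of the numbering, by distance from its median, were left out. All 10 varying probe sets had a negative r, and 0 of them passed after adjustment. Once the means of the 2 animal-number sets were also removed, the r of Clec4f was 0.0251 (exact permutation p = 0.958). Within the sets the r of the 10 probe sets lay between -0.114 and 0.379.

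With the set as a block, 0 of the 12 probe sets were called between the diets. The difference was then positive in 4 of the 9 varying genes, against 8 without the block. It was 0.34 ± 0.20 for Cd14, 0.13 ± 0.08 for Clec4f, 0.06 for Cd68 and 0.02 for Aif1, and -0.10 for Csf1r, -0.08 for C1qc, -0.04 for C1qa, -0.04 for Cd5l and -0.02 for Cd163. The diet differences within the sets pointed in opposite directions for most markers. Within animals 1 to 7 all 9 varying genes were higher in seasoned livers, from 0.09 for C1qc to 0.68 for Cd14. Within animals 8 to 14 8 of the 9 were lower, from -0.02 for Clec4f to -0.37 for Csf1r, while Cd14 differed by 0.0053.

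The change of the diet difference from the first set to the second was -0.27 ± 0.07 for C1qa and -0.52 ± 0.16 for Csf1r. limma called 0 of the 12 and 0 of all probe sets (0%) for this interaction, with 2058 at an unadjusted p under 0.05. The adjusted p was 0.617 for C1qa and 0.667 for Csf1r, and 3 of the 9 genes had an unadjusted p under 0.05. In C1qa alone the 2 diets were apart in both sets with opposite signs. Such a pattern was found in 2.52% of the varying probe sets.

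**Figure D2:**
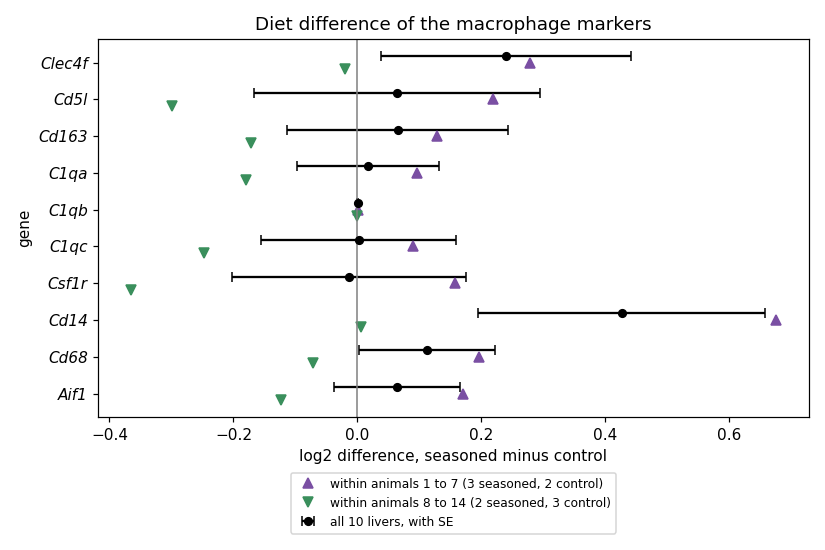
Log2 difference between seasoned and control livers for each marker. Circles with bars give the difference over all 10 livers with its SE, upward triangles the difference within animals 1 to 7 and downward triangles that within animals 8 to 14. The downward triangles of Csf1r (-0.37) and Cd5l (-0.30) lie left of 0 and the upward triangle of Cd14 lies farthest right at 0.68.

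The markers rose and fell together from liver to liver. With diet means removed, all 36 pairs of the 9 varying genes had a positive Pearson r, from 0.450 to 0.978 with a median of 0.898. Over all pairs of the 2613 varying genes the median was 0.228, and 6.88% of pairs were above 0.8, against 26 of the 36. The exact permutation of livers within the diets gave an adjusted p under 0.05 in 27 of the 36 pairs. The share of all varying-gene pairs that would pass it was not computed. This permutation does not keep the animal-number sets apart, so a shift between the sets can lower its p-values. The pairs share their livers and genes and are not independent of one another.

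The closest pair was C1qa and C1qc, the neighbouring genes of C1q chains. They had a Pearson r of 0.978 (p = 0.000625 by exact permutation, 0.00375 after adjustment over 36 pairs) and a Spearman correlation of 0.939 (exact permutation p = 0.00389, adjusted p = 0.0185). Without the 2 livers farthest from the median of C1qa, r was 0.957. Cd5l and Aif1 had an r of 0.939 (exact permutation p = 0.000139, adjusted p = 0.00375), a Spearman correlation of 0.939 (exact permutation p = 0.00118) and 0.935 without 2 livers. Clec4f and Csf1r reached an r of 0.915 (p = 0.00188 by exact permutation, adjusted p = 0.00614), a Spearman correlation of 0.964 (exact permutation p = 0.000278) and an r of 0.810 without 2 livers.

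Cd14 stood apart from the other markers. Its r with them lay between 0.450 (Aif1) and 0.637 (C1qa), and 0 of its 8 pairs passed after adjustment. Its r with the mean of the other 8 genes was 0.596, while each of the other 8 had an r between 0.897 and 0.977 with the mean of its partners, Csf1r being the highest. The remaining pair that missed the threshold was Clec4f and Cd68, at an r of 0.770 (exact permutation p = 0.0438, adjusted p = 0.0563).

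Part of this co-variation went with the 2 animal-number sets. When the means of diet and set were both removed, the median r of the 36 pairs fell to 0.533, against 0.143 over all pairs of varying genes. Then 25 pairs (69.4%) were positive, against 60.6% of all pairs of varying genes. After adjustment 0 passed by exact permutation over 144 arrangements, which can give no p below 0.00694. An unadjusted p under 0.05 was found for 11 pairs, among them the negative pairs of Cd14 with Cd5l and with Csf1r. The share of all varying-gene pairs with such a p was not computed, so this count has no background to be read against. The pairs that were still high included Cd163 and Csf1r at 0.845 and Cd5l and Aif1 at 0.832. The pairs of Clec4f ran from -0.482 with Cd14 to 0.5635 with Cd163, and its r with the mean of the other 8 genes was 0.0270. All 8 pairs of Cd14 were negative, from -0.315 to -0.667. Without seasoned animals 10 and 13, which were low in most markers, the median over the pairs, centred on diet, was 0.649.

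**Figure D3:**
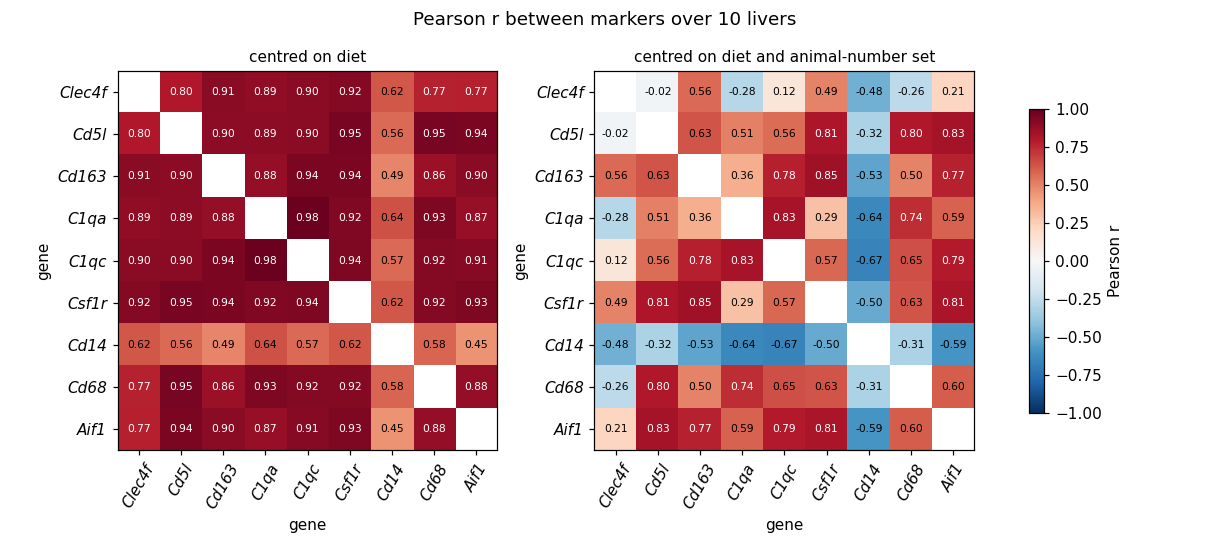
Pearson r between the 9 varying markers over 10 livers, with values centred on the diet means (left) or on the means of diet and animal-number set (right), and colour from blue (-1) to red (1). On the left every pair is positive and the row of Cd14 is palest. On the right the pairs of Cd14 are negative and Cd163 with Csf1r reaches 0.845.

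As a mean over the 9 genes, each relative to its mean of the 10 livers, seasoned animals 1, 4 and 7 were at 0.33, 0.35 and 0.19 and seasoned animals 10 and 13 at -0.33 and -0.27. Control animals 2 and 5 were at 0.04 and 0.09 and control animals 8, 11 and 14 at -0.23, -0.06 and -0.11. The same mean over all 2613 varying genes ran in part along with it. It was 0.07, 0.07 and 0.04 in seasoned animals 1, 4 and 7, -0.08 and -0.06 in animals 10 and 13, and 0.01, 0.11, -0.02, -0.12 and -0.02 in control animals 2, 5, 8, 11 and 14. Control animal 5 was the highest liver by this measure and not by the markers, and control animal 11 the lowest. The part of this array-wide shift in the marker differences was not tested.

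Genes most like the markers were sought among the 2604 varying genes outside the list, by the Pearson r with the mean profile of the 9 markers over the 10 livers, diet means removed. The 8 highest were Grn (0.984), Cybb (0.974), Fcer1g (0.967), Chkb (0.964), Lgals3 (0.958), Dlc1 (0.955), Ifitm1 (0.951) and Tpst2 (0.950). Grn encodes progranulin, Cybb the catalytic subunit of the phagocyte NADPH oxidase, Fcer1g the signalling chain of Fc receptors and Lgals3 galectin-3, all abundant in macrophages. Chkb is a choline kinase, Ifitm1 an interferon-induced membrane protein and Tpst2 a tyrosine sulphotransferase. With set means removed too, r was 0.835 for Grn, 0.863 for Cybb, 0.849 for Fcer1g, 0.920 for Lgals3, 0.806 for Dlc1 and 0.769 for Ifitm1, while it was 0.509 for Chkb and 0.0868 for Tpst2.

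Other macrophage genes were compared with the markers by the same measure. Of 20 genes of myeloid cells in general, 17 were measured and 9 varied. In 7 of the 9 the r with the marker profile was over 0.8, as it was in 11.6% of all varying genes outside the list. Tyrobp, the partner adaptor of many myeloid receptors, had an r of 0.932, the mannose receptor gene Mrc1 0.881 and the lysosomal protease gene Lgmn 0.883. The median over the 9 genes was 0.8805 with diet means removed and 0.466 with set means removed too, where Tyrobp had 0.827 and Mrc1 0.465. Over all varying genes outside the marker list these medians were 0.445 and -0.036. The other 8 measured myeloid genes were near-constant. Between the diets 0 of the 17 were called, and the 3 with the smallest p were Lyz2 (lysozyme, 0.12 ± 0.07), Fcer1g (0.14 ± 0.14) and the near-constant Ms4a7 (-0.00010). The median over the 9 that varied was 0.0039. Of 12 further Kupffer cell markers 6 were measured and 3 varied. Adgre1, which encodes a surface receptor of mature macrophages, had an r of 0.829 and the iron exporter gene Slc40a1 one of 0.821, with diet differences of -0.0054 ± 0.04 and -0.0043 ± 0.16. Id3, a transcription regulator of Kupffer cell identity, had an r of 0.650 and a difference of -0.08 ± 0.08. With set means removed too, r was 0.588 for Adgre1 and 0.4095 for Slc40a1, and it turned to -0.6065 for Id3. The other 2 of the 3 smallest p were those of the near-constant Spic (-0.00049) and Nr1h3 (0.00038), and 0 of the 6 were called.

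Of the genes that act with the markers, 0 were called between the diets in any list. Of 16 complement genes 11 were measured and 6 varied, with a median diet difference of 0.0057. C3, the central component, had an r of 0.927 with the markers, while C1s, a protease of the C1 complex made by hepatocytes, had one of -0.0665. With set means removed too, these were 0.3115 and 0.2795. C3 was the 1 gene of the 6 with an r over 0.8. The median r of the 6 was 0.508, and -0.114 with set means removed too. The 3 with the smallest p were the near-constant C1r (0.00021) and C3ar1 (0.00028), and Cfi, an inhibitor protease, at -0.02 ± 0.01. Csf1, the ligand of Csf1r, was the single varying gene of 8 in its list, with an r of -0.415 and a difference of 0.04 ± 0.09, and the smallest p values there were those of the near-constant Pik3cd, Inpp5d and Irf8.

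Of the 14 genes of the lipopolysaccharide response, in which Cd14 acts, 4 varied. Lbp, which delivers lipopolysaccharide to Cd14, had an r of 0.819 (0.385 with set means removed too) and a difference of 0.07 ± 0.18. Tnfaip3, an inhibitor of NF-kappaB signalling, differed by 0.17 ± 0.12 and the near-constant adaptor genes Myd88 and Irak1 by -0.0015 and 0.0011. Il1b, an inflammatory cytokine, differed by 0.02 ± 0.15, and Nfkbia, the remaining gene that varied, by -0.15 ± 0.18. The r with the markers was 0.626 for Tnfaip3, 0.588 for Nfkbia and 0.469 for Il1b. The median of the 4 was 0.607, and 0.468 with set means removed too. Of 7 measured genes of haemoglobin and haem handling, which Cd163 serves, Hmox1 (haem oxygenase) and Hamp (hepcidin) varied, with differences of -0.04 ± 0.09 and -0.28 ± 0.23. Hmox1 had an r of 0.7215 with the markers and Hamp one of 0.734. With set means removed too, these were 0.409 and -0.594. The 3 with the smallest p, Blvra, Blvrb and Slc48a1, were near-constant.

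Markers of the other cells of the liver were read in the same way. The ficolin gene Fcna, to which the listed monocyte name Fcn1 was matched, had an r of 0.923 with the markers and a diet difference of 0.13 ± 0.15. Since it was reached through a synonym, Fcna is not read here as a marker of cells other than macrophages. S100a9, a neutrophil gene, had an r of 0.467 and a difference of 0.14 ± 0.14. The other 6 measured genes of that list were near-constant, S100a8 (0.00022) and Csf3r (0.00036) among them. Of sinusoidal endothelial genes, 2 of 7 varied, Eng with an r of 0.847 and Stab2 with 0.614, and the latter differed by -0.06 ± 0.11. With set means removed too, r was 0.1755 for Eng and 0.730 for Stab2. Stab1 and Lyve1 were near-constant. Stellate cell genes had a median r of 0.0995 over 4 varying members, of which Dcn differed by -0.14 ± 0.20. Des and Hgf were near-constant. All 9 measured lymphocyte markers were near-constant, Cd8a, Cd4 and Nkg7 among them.

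Hepatocyte markers had a median r of -0.250 with the macrophage markers over 5 varying members, and the sign turned to a median of 0.377 with set means removed too. Apoa1 differed by 0.23 ± 0.07 between the diets (adjusted p = 0.850 by limma) and Tat by -0.24 ± 0.22, while Fgb was near-constant. The haemoglobin gene Hbb had an r of 0.00634 (0.588 with set means removed) and differed by 0.12 ± 0.12, with Slc4a1 and Alas2 near-constant. The cholangiocyte gene Epcam had an r of 0.0106 and differed by 0.12 ± 0.11, with Krt7 and Cftr near-constant. Mbp was the single varying brain gene, with an r of 0.0409, and Gfap, Nefl and Aqp4 were near-constant. None of these cell type lists held a gene called between the diets by limma, and 682 of all 14217 genes had an unadjusted p under 0.05.

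**Figure D4:**
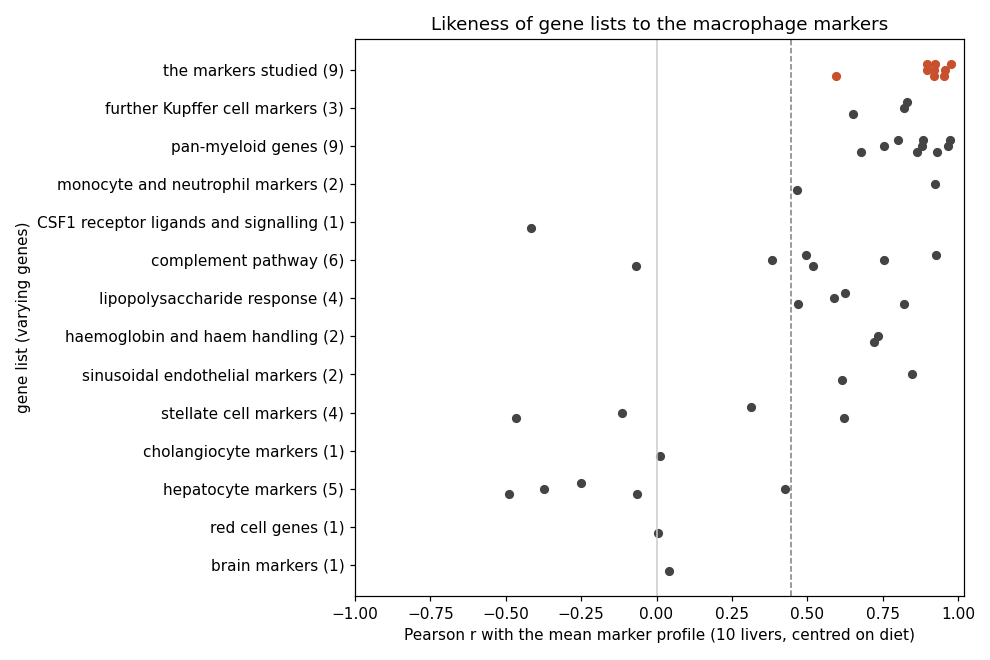
Pearson r of each varying gene with the mean profile of the 9 markers over 10 livers, centred on diet, by gene list, with the number of varying genes in brackets. Each marker is set against the mean of the other 8, and the dashed line is the median of all other varying genes (0.445). Pan-myeloid genes lie between 0.678 and 0.974, while the 5 varying genes of the hepatocyte list lie between -0.488 and 0.426. C3 (0.927), Eng (0.847) and Lbp (0.819) also lie above 0.8. Each is the single such gene of its list, among 6 complement, 2 endothelial and 4 lipopolysaccharide response genes. With set means removed too, the medians of the pan-myeloid and hepatocyte lists were 0.466 and 0.377, against -0.036 over all other varying genes.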

How the data were processed

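Liver RNA of 10 rats was hybridised, 1 array each, from biotin-labelled cRNA made of 100 ng total RNA, per the labels' protocols. The authors deposited 1 log2 signal per probe set. Base 2 was read from the values (4.79 to 14.34). The summary and normalization methods are not given in the sources used here. Of 31099 rows, 57 controls were left out. Of the other 31042 probe sets, 20826 had 1 gene, 436 several and 9780 none. A listed name was matched through a synonym only where it is no current symbol itself. Symbols came from the platform's gene table, updated by gene identifier through the GRCr8 gene table (20758 matched), which served for names and neighbours only.

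Seasoned livers were compared with controls by limma 3.58.1 (lmFit, eBayes, two-sided, R 4.3.3) over all probe sets, with Benjamini-Hochberg adjustment and a threshold of 0.05. The 10 animals are separate rats. A probe set with an SD of 0.01 or less over the 10 arrays is called near-constant. Correlations used values centred on diet means, with exact two-sided permutation within the diets (14400 arrangements, Python 3.11.15). The fit was tested on simulated data. Detection calls were not used here, and precision is limited by how many arrays there are. Dim probe sets were kept.

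The markers, gene lists and tests were chosen with earlier results of these data known. Named genes are all markers, the 3 genes of each other list with the smallest p, and the 8 genes most like the markers. Others named in the lists (among them Tyrobp, Mrc1, Lgmn, Adgre1, Slc40a1, C3, C1s, Csf1, Lbp, Il1b, Hmox1, Hamp, Fcna, Eng, Mbp, P2ry12 and Tmem119) were chosen after their values were seen. Alternatives covered the unit of the fit, filters, normalization, the variance model, animal number and its sets as covariates and each liver left out. The interaction of diet and set, the relation to animal number, the set fit on genes or varying probe sets, and the correlations without animals 10 and 13 were added after seeing the data.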

Additional observations from a re-analysis of the deposited data

Results flagged for a closer look

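Among 62 groups of 5 livers (the markers and the named genes that varied, in both diets), 1 held a liver apart from the rest, where chance alone gives about 1 in 20, or 3.1. For C1qb seasoned animal 10 was low, with a gap of 0.7267 of the group's range against a limit of 0.71. That group ran from 8.6556 to 8.6565 log2 units.

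C1qa was higher in all seasoned livers than in all controls among animals 1 to 7 (means 9.48 and 9.39) and lower in all seasoned livers among animals 8 to 14 (9.05 and 9.23). The change of the diet difference was -0.2745 ± 0.07 (SE), with an adjusted p of 0.617 by limma over all probe sets.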

How the results depend on the processing

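The count of 0 marker probe sets called between the diets held under all alternatives run, with 0 also when any 1 liver was left out. For single genes, 153 of 180 alternatives kept the sign of the difference, and the smallest adjusted p of any was 0.438. Alternatives that changed only the probe sets tested or the variance model leave the difference as it is. They could not turn a sign, so this count overstates how stable the signs were. Among the 10 fits without 1 liver the sign turned in 6 for C1qc, 5 for C1qa, 4 for Csf1r, 3 for Cd5l and 2 for Cd163. The sign turned when the set of animal numbers was blocked on for Cd163 (-0.022), Cd5l (-0.040), C1qa (-0.042) and C1qc (-0.079), with animal number as a covariate for C1qa (-0.012) and C1qc (-0.036), and after repeated quantile normalization for C1qc (-0.0012). With 1 liver left out, the difference ranged from -0.037 to 0.099 for C1qa, -0.069 to 0.12 for C1qc, -0.038 to 0.19 for Cd163, -0.057 to 0.19 for Cd5l and -0.12 to 0.11 for Csf1r, and it stayed positive in Clec4f (0.13 to 0.36), Cd14 (0.33 to 0.64), Cd68 (0.040 to 0.18), Aif1 (0.0043 to 0.14) and C1qb. The cause of these turns was not tested.

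The number of marker probe sets called between the animal-number sets was 2. It was 1 after repeated quantile normalization and 1 after centring on array medians, 3 with the set as the only term and 7 in a fit of varying probe sets alone, which tests fewer features. With 1 liver left out it ranged from 0 to 3: it was 0 without seasoned animals 1, 4, 7, 10 or 13 or control animals 5 or 11, 1 without control animals 8 or 14, and 3 without control animal 2. The median correlation of the markers, 0.898, was 0.871 without centring, 0.533 centred on diet and set, 0.8635 after quantile normalization, 0.861 by Spearman and 0.649 without seasoned animals 10 and 13. It ranged from 0.840 to 0.935 with 1 liver left out. No paired analysis was possible because the titles give the 2 diets no animal number in common and the labels, which speak of paired feeding, do not say which animals were paired.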
